A study of Mus musculus with 17 samples.

Results

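The proteasome genes of the mouse kidney were examined in obese diabetic db/db animals and in lean db/m animals. Members were all protein-coding genes whose symbol starts with Psm, then a letter from a to g and a digit. Psmb8 and Psmb9 were left out, and at least 10 counts were required in at least 8 of 17 libraries. This rule took 44 genes of the 55487 gene identifiers in the table, and all 44 were among the 12131 genes tested. The rule used no difference between the groups. Another 4 genes match the symbols but not the count minimum: Psme2, Psmc3ip, Psma8 and Psmb11.

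Kidneys came from 9 db/db and 8 db/m male mice aged 16 weeks, with 1 library per animal. The db/db mice are homozygous for the Lepr db allele, so they lack the long form of the leptin receptor in every tissue and become obese and diabetic. The db/m mice carry 1 copy of that allele, and so hold the mutant receptor allele too, and are lean. The titles set the groups here. For each of the 17 samples the genotype field names the other genotype, and every direction below would turn round if it were right.

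The proteasome degrades proteins that carry a ubiquitin chain. Its 20S core is a barrel of stacked rings: the outer alpha rings gate the entrance and the inner beta rings hold the proteolytic sites. The 19S cap binds the chain, removes it and unfolds the substrate with a ring of ATPases. Other caps, the PA28 and PA200 activators, open the core without ubiquitin. Subunits are present in fixed proportions in the particle, and when proteasome activity is low the factor Nfe2l1 can raise the transcription of most subunit genes together. Inflammatory signals instead induce alternative catalytic subunits, which form the immunoproteasome.

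Libraries were made from polyadenylated RNA by QuantSeq, which reads 1 tag near the 3′ end of each transcript, so levels in CPM (counts scaled to a common library size) do not grow with transcript length and can be set beside each other. They held 3256427 to 7627747 gene counts, and the 44 members took 0.358 to 0.477% of them in db/db and 0.372 to 0.419% in db/m. The protocol text describes cultured cells, whereas the tissue field and titles give kidney. Kidney markers were abundant: 10 proximal tubule genes summed to 7353 to 10350 CPM in db/db and 7669 to 10360 CPM in db/m. Of the db/db libraries, replicate 8 stood apart from the rest, and replicate 7 to a lesser degree. For the named members that they moved most, the value without them is given as well.

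Few proteasome transcripts differed between the groups (the plot of fold changes by role). Only the ATPase gene Psmc6 passed the test (edgeR quasi-likelihood test, Benjamini-Hochberg adjusted p under 0.05). It was lower in db/db, and no member was higher. That is 2.27% of the members, where 7.39% of all genes tested were called, 3.91% higher and 3.49% lower. DESeq2 and limma-voom also called 1 member. At an unadjusted p under 0.05 there were 6 members (13.6%): Psmc5, Psmd13, Psmg4 and Psmf1 were on the higher side, and Psmc6 and Psmd2 on the lower side. Over all genes tested the share was 21.1%. The log2 fold change (db/db over db/m) was positive in 21 members and negative in 23, with a median of -0.02, and 0.00 over all genes tested. It ran from -0.52 in Psma5 to 0.46 in Psmd13. In bulk tissue, fewer cells of a type and less RNA per cell cannot be told apart, and this holds for every value given here.

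The width of the intervals sets what these data could show. For 23 of the 44 members (52.3%) the 95% interval of the log2 fold change lay within 0.5 of 0, and for 42 (95.5%) within 1. Over all genes tested these shares were 35.2% and 84.1%. The exceptions to the wider bound were the alpha subunit gene Psma5 and the lid deubiquitinase gene Psmd14, both of low level. No member had db/db and db/m libraries that did not overlap, against 1.78% of all genes tested.

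**Figure D1:**
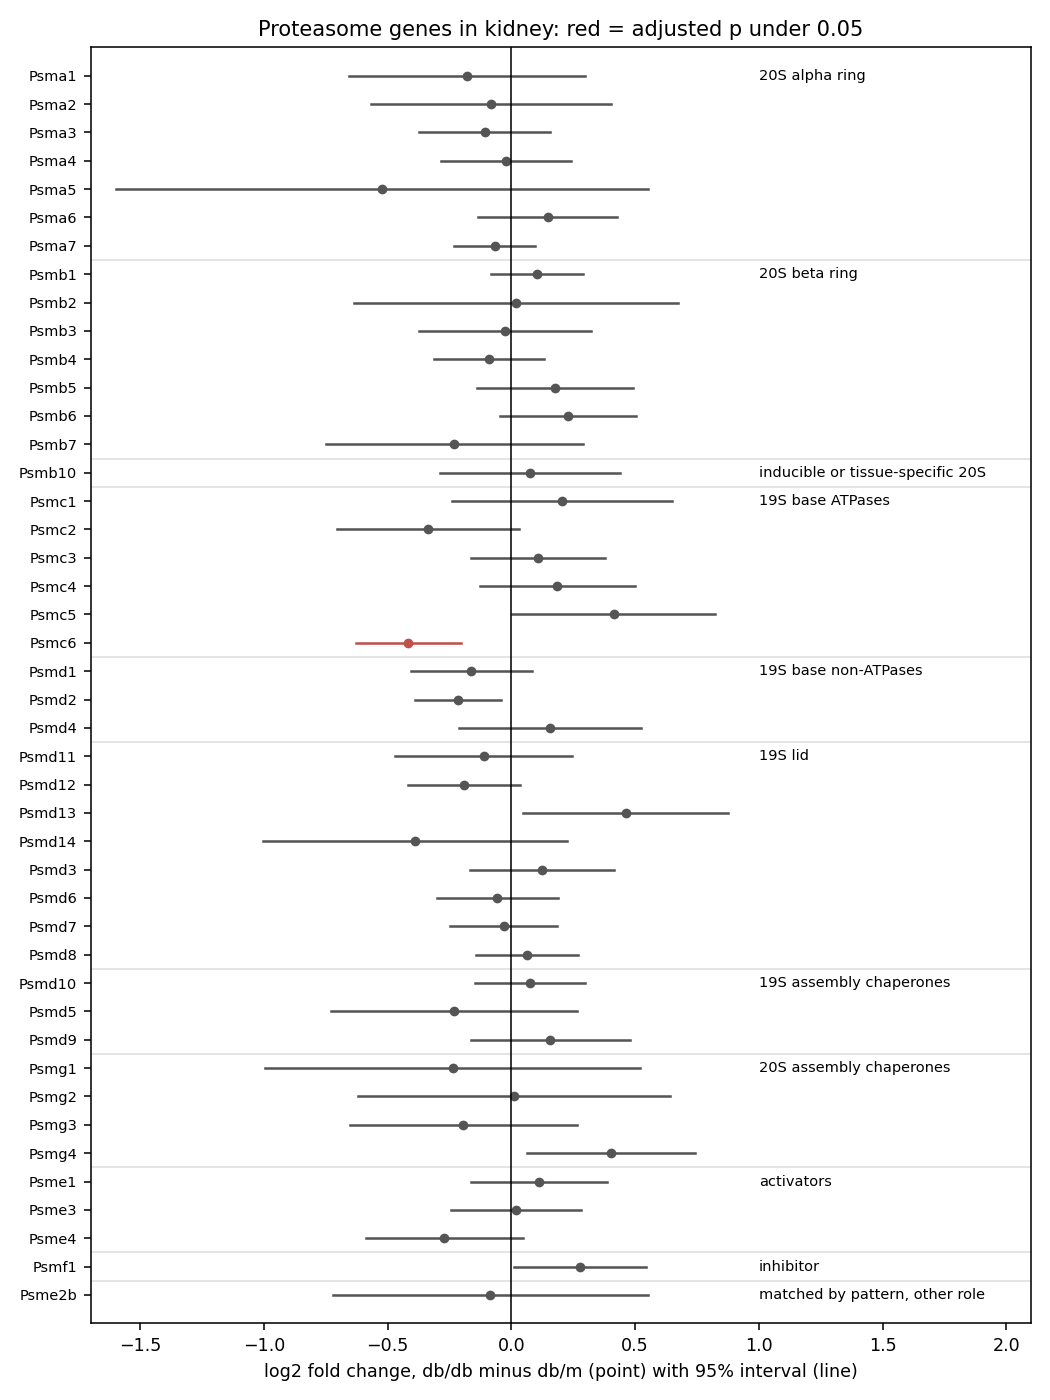
Log2 fold change (db/db over db/m) of the 44 members, with its 95% interval, grouped by role. Most intervals cross 0, Psmc6 is the member called (-0.42), and the members run from -0.52 in Psma5 to 0.46 in Psmd13.

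Psmc6 encodes an ATPase of the 19S base, one of the ring that unfolds substrates and feeds them into the core. Its level ran from 38.5 CPM (replicate 8) through a median of 48.01 to 55.0 CPM (replicate 1) in db/db, against 51.4, 63.7 and 78.9 CPM in db/m. All 9 db/db libraries lay below the db/m median, and the groups overlapped at their edges. The means were 47.8 ± 5.20 CPM in db/db (SD, n = 9) and 63.8 ± 9.09 CPM in db/m (SD, n = 8). Psmc6 fell by 0.42 on the log2 scale (SE 0.10, 95% interval -0.63 to -0.20, edgeR quasi-likelihood test, adjusted p = 0.0131). A two-sided exact permutation test of mean log2 CPM gave p = 0.000247, adjusted over all genes tested to 0.00916. Without db/db replicates 7 and 8 the log2 fold change was -0.35 (edgeR adjusted p = 0.0271).

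Among the members Psmc6 has the lowest GC content, 37.0% of its longest transcript, against a median of 49.6% and a highest value of 58.3%. With offsets adjusted for GC content its log2 fold change was -0.26 and the call was lost (edgeR adjusted p = 0.0875). It was also lost with the share of reads outside genes as a covariate, at a log2 fold change of -0.42 (edgeR adjusted p = 0.0503). That share was 15.3 to 22.1% in db/db and 19.7 to 20.8% in db/m. The parts of GC content and of these reads in the Psmc6 result were not tested further.

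Psmc6 was searched for the antioxidant response element because Nfe2l1 and its relative Nfe2l2 bind that sequence in many proteasome promoters. The core TGACNNNGC was looked for on both strands of the 250 bases before the RefSeq start (build GRCm38.p6), a window that 37 of the 44 members have. It lay in 5 of the 37 (13.5%), and in 11.5% of the 27025 genes with a window. Log2 fold changes of those 5 had both signs, at 0.23 for Psmb6, 0.18 for Psmb5, 0.16 for Psmd9, -0.19 for Psmd12 and -0.42 for Psmc6. The windows of the called gene and of the 2 catalytic subunit genes with the element are shown, 5′ to 3′ on the gene's strand, with the match in capitals. In Psmc6 the element is on the opposite strand, 227 to 219 bases before the start. It lies 47 to 39 bases before the start in Psmb5 and 9 to 1 bases before it in Psmb6. The windows are chr14:45329574-45329823 (plus strand) for Psmc6, chr14:54617996-54618245 (minus strand) for Psmb5 and chr11:70525107-70525356 (plus strand) for Psmb6.
Psmc6: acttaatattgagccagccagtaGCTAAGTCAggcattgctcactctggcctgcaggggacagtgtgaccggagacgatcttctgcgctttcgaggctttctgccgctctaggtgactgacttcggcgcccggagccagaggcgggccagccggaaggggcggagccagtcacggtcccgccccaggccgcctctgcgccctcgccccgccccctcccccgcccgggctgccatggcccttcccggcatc
Psmb5: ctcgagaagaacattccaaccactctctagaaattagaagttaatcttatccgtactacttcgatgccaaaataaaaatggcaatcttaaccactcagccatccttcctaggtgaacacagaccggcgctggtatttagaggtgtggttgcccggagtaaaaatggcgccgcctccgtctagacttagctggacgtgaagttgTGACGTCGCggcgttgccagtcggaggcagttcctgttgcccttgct
Psmb6: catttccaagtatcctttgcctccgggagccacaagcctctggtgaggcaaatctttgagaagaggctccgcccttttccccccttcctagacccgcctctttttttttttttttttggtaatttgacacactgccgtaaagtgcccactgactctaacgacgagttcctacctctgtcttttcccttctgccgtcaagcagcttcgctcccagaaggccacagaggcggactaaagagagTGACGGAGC

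Other motifs were about as frequent in the members as elsewhere or rested on few genes. The box CCAAT, bound by NF-Y, lay in 12 of the 37 windows (32.4%) and in 37.5% of all. The interferon-stimulated response element core (GAAA, any 2 bases, GAAA) lay in 3 (8.11%: Psmb3, Psmd4 and Psmd9) and in 3.46% of all, and the gamma-activated site TTCNNNGAA in 1 of 37 (Psmg1) and in 8.13% of all. Both strands were searched for each, and a match is a run of letters, not a shown binding site.

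The other 5 ATPases of the base ring were not called. Psmc5 had 132 CPM at the lowest, a median of 240 and 474 CPM at the highest in db/db, against 144, 198 and 241 CPM in db/m. The highest db/db library was replicate 8, and 2 of 9 db/db libraries lay below the db/m median. Its log2 fold change was 0.41 (SE 0.20, edgeR adjusted p = 0.232), but 0.11 without db/db replicates 7 and 8. Psmc2 lay on the other side, with 30.7 (replicate 8), 72.8 and 106 CPM in db/db and 69.9, 91.5 and 123 CPM in db/m, a log2 fold change of -0.34 (SE 0.18, edgeR adjusted p = 0.286), or -0.21 without db/db replicates 7 and 8. Psmc1, Psmc3 and Psmc4 had log2 fold changes of 0.20, 0.11 and 0.19, and without db/db replicates 7 and 8 of -0.13, -0.02 and -0.02. In db/db replicate 8 Psmc1 reached 634 CPM, while the db/db median was 239 CPM and the db/m libraries held 176 to 299 CPM. The ATPase proteins form 1 ring in equal numbers. Log2 fold changes of their transcripts ran from -0.42 to 0.41, and from -0.35 to 0.11 without db/db replicates 7 and 8.

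The subunits without ATPase activity complete the base. Psmd2, the scaffold that receives shuttle factors and the deubiquitinase Usp14, had 77.6, 88.8 and 102 CPM in db/db (lowest, median, highest), against 95.2, 105 and 118 CPM in db/m. All 9 db/db libraries lay below the db/m median, as for Psmc6 and no other member, and the groups overlapped. Means were 90.7 ± 9.02 CPM in db/db (SD, n = 9) and 105 ± 7.39 CPM in db/m (SD, n = 8), a log2 fold change of -0.21 (SE 0.08, 95% interval -0.39 to -0.04, edgeR adjusted p = 0.132). The exact permutation test of mean log2 CPM, two-sided, gave an adjusted p = 0.0449, so the tests differ on this gene. Psmd1, the other scaffold, had a log2 fold change of -0.16 (SE 0.12), and the ubiquitin receptor Psmd4 had 0.15 (SE 0.18). Psmd4 read 163 to 500 CPM in db/db with its top in replicate 8, and 201 to 320 CPM in db/m. Without db/db replicates 7 and 8 its log2 fold change was -0.10.

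None of the 8 lid genes was called, and their median log2 fold change was -0.04. Psmd13, a structural lid subunit, had the highest log2 fold change of all members at 0.46 (SE 0.20, 95% interval 0.05 to 0.88, edgeR adjusted p = 0.182). Its levels were 143, 203 and 433 CPM in db/db (lowest, median, highest), against 124, 172 and 209 CPM in db/m. The top value was again replicate 8, and without db/db replicates 7 and 8 the log2 fold change was 0.13. Psmd12, which also builds the lid scaffold, had 33.1, 39.0 and 50.9 CPM in db/db and 37.6, 45.7 and 50.4 CPM in db/m (log2 fold change -0.19, SE 0.11). Psmd14 encodes the metalloprotease that cuts the ubiquitin chain from the substrate. It read 7.74, 14.3 and 34.4 CPM in db/db and 10.3, 15.9 and 40.0 CPM in db/m, with a log2 fold change of -0.39 (95% interval -1.01 to 0.22), or -0.25 without db/db replicates 7 and 8. The remaining lid genes, Psmd3, Psmd6, Psmd7, Psmd8 and Psmd11, had log2 fold changes from -0.11 to 0.12.

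The 14 genes of the constitutive 20S rings gave no call, and none had an unadjusted p under 0.05. Their median log2 fold change was -0.05. Of the alpha ring genes, which form the gate, 6 of 7 were on the lower side, with a median of -0.08. Psma7 varied least of all members within groups, with an SD of 0.11 on the log2 scale. It had 167, 197 and 214 CPM in db/db (lowest, median, highest) and 174, 210 and 220 CPM in db/m, so that its interval ran only from -0.23 to 0.10. At the other end, Psma5 varied most, with an SD of 1.28. It was listed at 0 in db/db replicate 8 and at 0.310 CPM in replicate 7, and ran to 10.1 CPM in db/db, against 1.16 to 10.9 CPM in db/m. Its interval, -1.60 to 0.55, leaves its difference unresolved. Replicate 8, where Psma5 was at 0, held 5178789 gene counts, above the db/db median of 4548000. Without db/db replicates 7 and 8 the log2 fold change of Psma5 was -0.18. Psma6 was the alpha gene on the higher side (log2 fold change 0.15, SE 0.13), with its highest level in db/db replicate 7 and a log2 fold change of 0.01 without db/db replicates 7 and 8.

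Beta ring genes had a median log2 fold change of 0.02. The 3 that carry the catalytic sites are Psmb6 (caspase-like), Psmb7 (trypsin-like) and Psmb5 (chymotrypsin-like, the target of bortezomib). Psmb5 was low in all libraries, with 16.1, 17.4 and 26.1 CPM in db/db and 12.7, 14.8 and 23.5 CPM in db/m. All 9 db/db libraries lay above the db/m median, the sole member with that arrangement, but the log2 fold change was 0.18 (SE 0.15, edgeR adjusted p = 0.551). For Psmb6 the values were 128, 178 and 257 CPM in db/db and 128, 154 and 209 CPM in db/m, with 8 of 9 db/db libraries above the db/m median (log2 fold change 0.23, SE 0.13, edgeR adjusted p = 0.335). Without db/db replicates 7 and 8 that value was 0.07. Psmb7 read 16.0, 46.8 and 76.8 CPM in db/db and 23.6, 60.6 and 85.6 CPM in db/m (log2 fold change -0.23, SE 0.25), with -0.09 when db/db replicates 7 and 8 were left out. An overlapping gene, Nek6, lies on the opposite strand at the 3′ end of Psmb7, and the strand setting of the counting is not given in the sources used here. The 4 structural beta genes, Psmb1, Psmb2, Psmb3 and Psmb4, had log2 fold changes from -0.09 to 0.10.

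**Figure D2:**
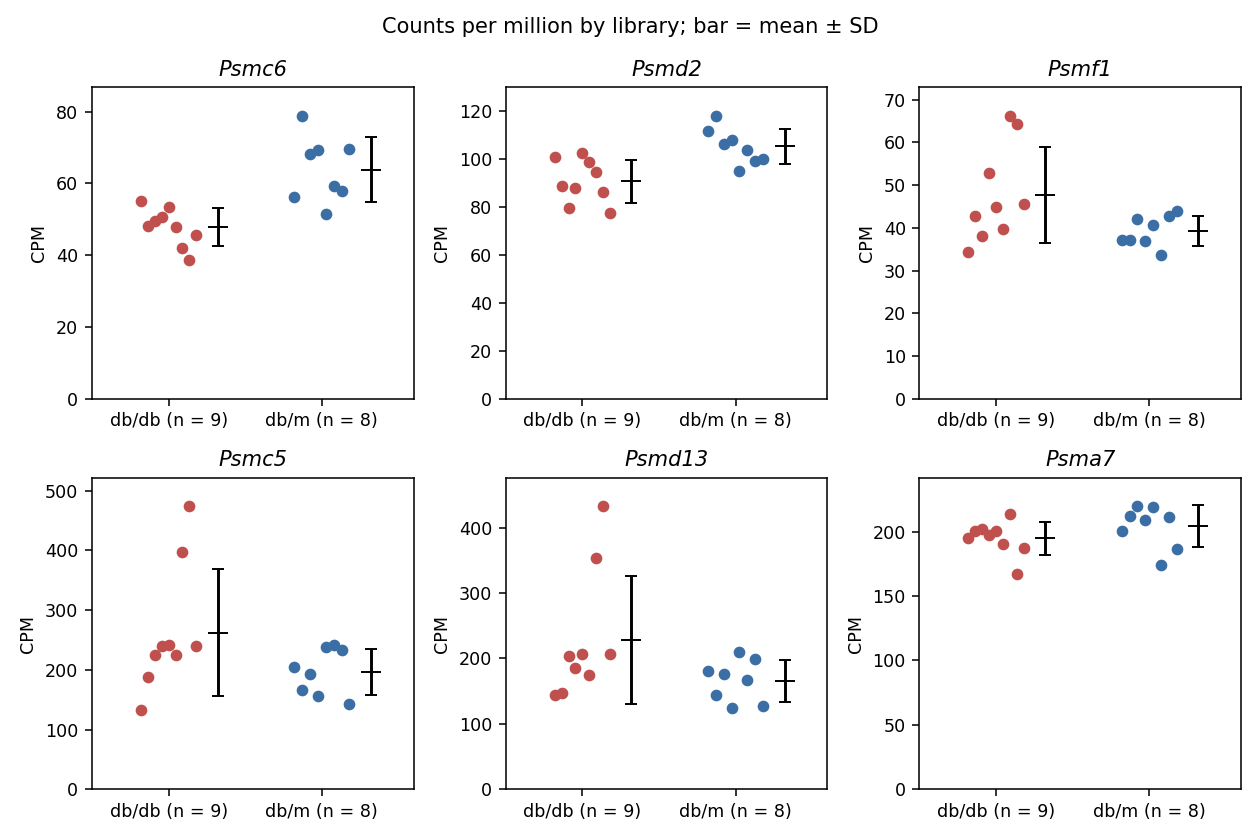
CPM of selected members in each library, db/db on the left and db/m on the right of each panel, with bars for the mean ± SD of each group. Psmc6 and Psmd2 lie lower in db/db with overlap at the edges, and db/db replicate 8 gives the highest Psmc5 and Psmd13 values.

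Levels differed far more between subunits than between groups. Averaged over the group means, the highest was Psmd4 at 281 CPM, then Psmc3 at 278 and Psmc1 at 265 CPM. Those 3 do not differ beyond their spread, since Psmc1 alone had an SD of 142 CPM in db/db and 50.1 CPM in db/m. The lowest were Psmb2 at 7.83, Psmg1 at 7.28 and Psma5 at 4.59 CPM, and these too lie within their SDs of each other. Within the alpha ring, whose subunits are present in equal numbers, the highest mean level (Psma7) was 51.7 times the lowest (Psma5) in db/db and 37.7 times in db/m. Within the beta ring the ratio of Psmb4 to Psmb2 was 29.3 in db/db and 32.1 in db/m. How much of a transcript a 3′ tag catches may differ between genes, and this was not tested.

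The immunoproteasome genes were of low level. Psmb10, the inducible trypsin-like subunit, had 9.83, 15.01 and 24.4 CPM in db/db and 11.6, 15.9 and 18.95 CPM in db/m. Of the 9 db/db libraries, 2 lay below every db/m library and 4 above every one, so the groups overlapped with a wider spread in db/db. The log2 fold change was 0.07 (SE 0.18, edgeR adjusted p = 0.858), and -0.06 without db/db replicates 7 and 8. Psmb8 and Psmb9, its partners in the same particle, are not members and had negative log2 fold changes. Psmb8 averaged 5.21 ± 2.57 CPM in db/db and 7.74 ± 3.34 CPM in db/m, a log2 fold change of -0.58 (SE 0.29, edgeR adjusted p = 0.252). Psmb8 was highest in db/m replicate 8 (14.9 CPM). Its log2 fold change was -0.26 without replicate 8 of both groups (edgeR adjusted p = 0.597) and -0.43 without db/db replicates 7 and 8. Psmb9 had 91 counts in all db/db libraries together and 125 in the db/m libraries (log2 fold change -0.51, SE 0.40, from a fit of all genes with a count). Psmb9 was also highest in db/m replicate 8 (8.43 CPM). Its median was 2.28 CPM in db/db and 2.06 CPM in db/m, with 6 of 9 db/db libraries above the db/m median.

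Irf1, a transcription factor of the interferon response that acts on immunoproteasome genes, had 8.05, 15.7 and 22.9 CPM in db/db (lowest, median, highest) and 12.3, 22.0 and 29.1 CPM in db/m. Of the db/db libraries, 8 of 9 lay below the db/m median, with overlap between the groups, and the log2 fold change was -0.54 (SE 0.19, edgeR adjusted p = 0.100). Leukocytes hold much of the immunoproteasome, and 10 leukocyte markers summed to 90.7 to 288 CPM in db/db and 194 to 352 CPM in db/m. Of the 8 tested, Ptprc was called (log2 fold change -1.49, edgeR adjusted p = 2.36e-05), and Cd79a was at 0. Their part in the Irf1, Psmb8 and Psmb9 values was not tested.

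The PA28 activator of the cytoplasm is a ring of the Psme1 and Psme2 products. Psme1 had 37.4, 50.5 and 78.3 CPM in db/db and 40.2, 47.8 and 56.1 CPM in db/m, a log2 fold change of 0.11 (SE 0.13), and 0.00 without db/db replicates 7 and 8. Psme2 had 37 counts over the db/db libraries and 36 over the db/m libraries, with none in 4 db/db and 2 db/m libraries. The near-copy Psme2b took 465 counts in db/db and 476 in db/m. The transcripts of Psme2 and Psme2b are identical at 99.4% of 794 aligned positions, so the split of reads between them is uncertain. Psme2b itself had a log2 fold change of -0.09 (SE 0.31), which was 0.13 without db/db replicates 7 and 8.

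Whether immunoproteasome partners varied together between animals was asked within each group, over 4 relations. No pair with a constitutive subunit was examined, so whether a relation is particular to these genes was not tested. Psmb10 and Psme1 correlated in db/db (Pearson r = 0.794, exact permutation p = 0.00873, adjusted 0.0349; Spearman rho = 0.817, exact permutation p = 0.0108, adjusted 0.0431; n = 9). In db/m the values were r = 0.752 (exact permutation p = 0.0318, adjusted 0.0423) and rho = 0.810 (exact permutation p = 0.0218, adjusted 0.0436; n = 8). Without the 2 libraries farthest from the median of Psmb10, r was 0.704 in db/db (exact permutation p = 0.0702) and 0.536 in db/m (exact permutation p = 0.268), so the relation no longer passed in either group at the smaller n. Psme1 and Psme2 gave r = -0.194 in db/db (exact permutation p = 0.622, adjusted 0.622; rho = -0.148, exact permutation p = 0.703, adjusted 0.703). In db/m they gave r = -0.794 (exact permutation p = 0.0235, adjusted 0.0423) and rho = -0.683 (exact permutation p = 0.0729, adjusted 0.0972). With 36 Psme2 counts in db/m that value is a description of sparse counts. Without the 2 libraries farthest from the median of Psme1, r was -0.226 in db/db and -0.617 in db/m.

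The other caps and the inhibitor were not called. Psme4 encodes PA200, a nuclear activator. It had 66.9, 105 and 161 CPM in db/db and 107, 127 and 168 CPM in db/m, with 7 of 9 db/db libraries below the db/m median (log2 fold change -0.27, SE 0.15, edgeR adjusted p = 0.322). Leaving out db/db replicates 7 and 8 gave -0.15 (edgeR adjusted p = 0.599). Psme3, the nuclear form of PA28, had a log2 fold change of 0.02 (SE 0.13). Psmf1 encodes PI31, which inhibits the core in vitro. It read 34.4, 44.8 and 66.3 CPM in db/db and 33.7, 39.0 and 43.9 CPM in db/m, with 7 of 9 db/db libraries above the db/m median. Its log2 fold change was 0.28 (SE 0.13, edgeR adjusted p = 0.219), and 0.12 without db/db replicates 7 and 8.

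Assembly chaperones were likewise uncalled. Psmg4, which helps to build the alpha ring, had 14.9, 19.5 and 29.9 CPM in db/db and 10.1, 16.1 and 19.7 CPM in db/m, a log2 fold change of 0.40 (SE 0.16, edgeR adjusted p = 0.153). Here 7 of 9 db/db libraries lay above the db/m median, and the value was 0.35 without db/db replicates 7 and 8. With the share of reads outside genes as a covariate it was 0.09 (edgeR adjusted p = 0.825). Its partner Psmg3 had a log2 fold change of -0.19 (SE 0.22), and the Psmg1 and Psmg2 pair had -0.24 and 0.01. With db/db replicates 7 and 8 left out these were -0.03 for Psmg3, 0.02 for Psmg1 and 0.15 for Psmg2. Of the chaperones of the 19S base, Psmd9 had a log2 fold change of 0.16 (SE 0.15), Psmd5 of -0.23 (SE 0.24) and Psmd10, also known as gankyrin, of 0.07 (SE 0.11). Without those 2 libraries Psmd9 had 0.09 and Psmd5 had -0.13. The pattern genes below the count minimum held few counts: Psmc3ip, a recombination factor, had 58 in db/db and 51 in db/m, the testis subunit Psma8 had 2 and 3, and the thymus subunit Psmb11 had 1 and 0.

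Members were spread most widely in db/db replicates 7 and 8 (the heat map of members by library). About the median library, the members had an SD of 1.09 on the log2 scale in replicate 8 and 0.637 in replicate 7, and 0.175 to 0.516 in the other 15 libraries. Over the tested genes that are not members the SD was 0.837 in replicate 8 and 0.621 in replicate 7. It was 0.360 to 0.576 in the other 15, so replicate 7 stood little apart. In replicate 8, 14 members had their lowest value of the 17 libraries and 13 their highest. There, 8 members lay at least 1 log2 unit below the db/m mean and 3 at least 1 above it. In replicate 7 these counts were 3 and 2. In the other 15 libraries 0 to 6 members lay that far from the db/m mean. The 6 were in db/m replicate 5, so replicate 7 did not exceed every db/m library by this count. They were Psma5, Psmb7, Psmg1, Psmg2, Psmg3 and Psme2b, all low there as in db/db replicate 8. The first principal component of genes other than the members held 32.7% of the variance and placed replicate 8 at the far end. Without replicates 7 and 8, 10 members had the opposite sign of log2 fold change, and the median size of the change was 0.12 in place of 0.16. Psmc6 was still called.

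**Figure D3:**
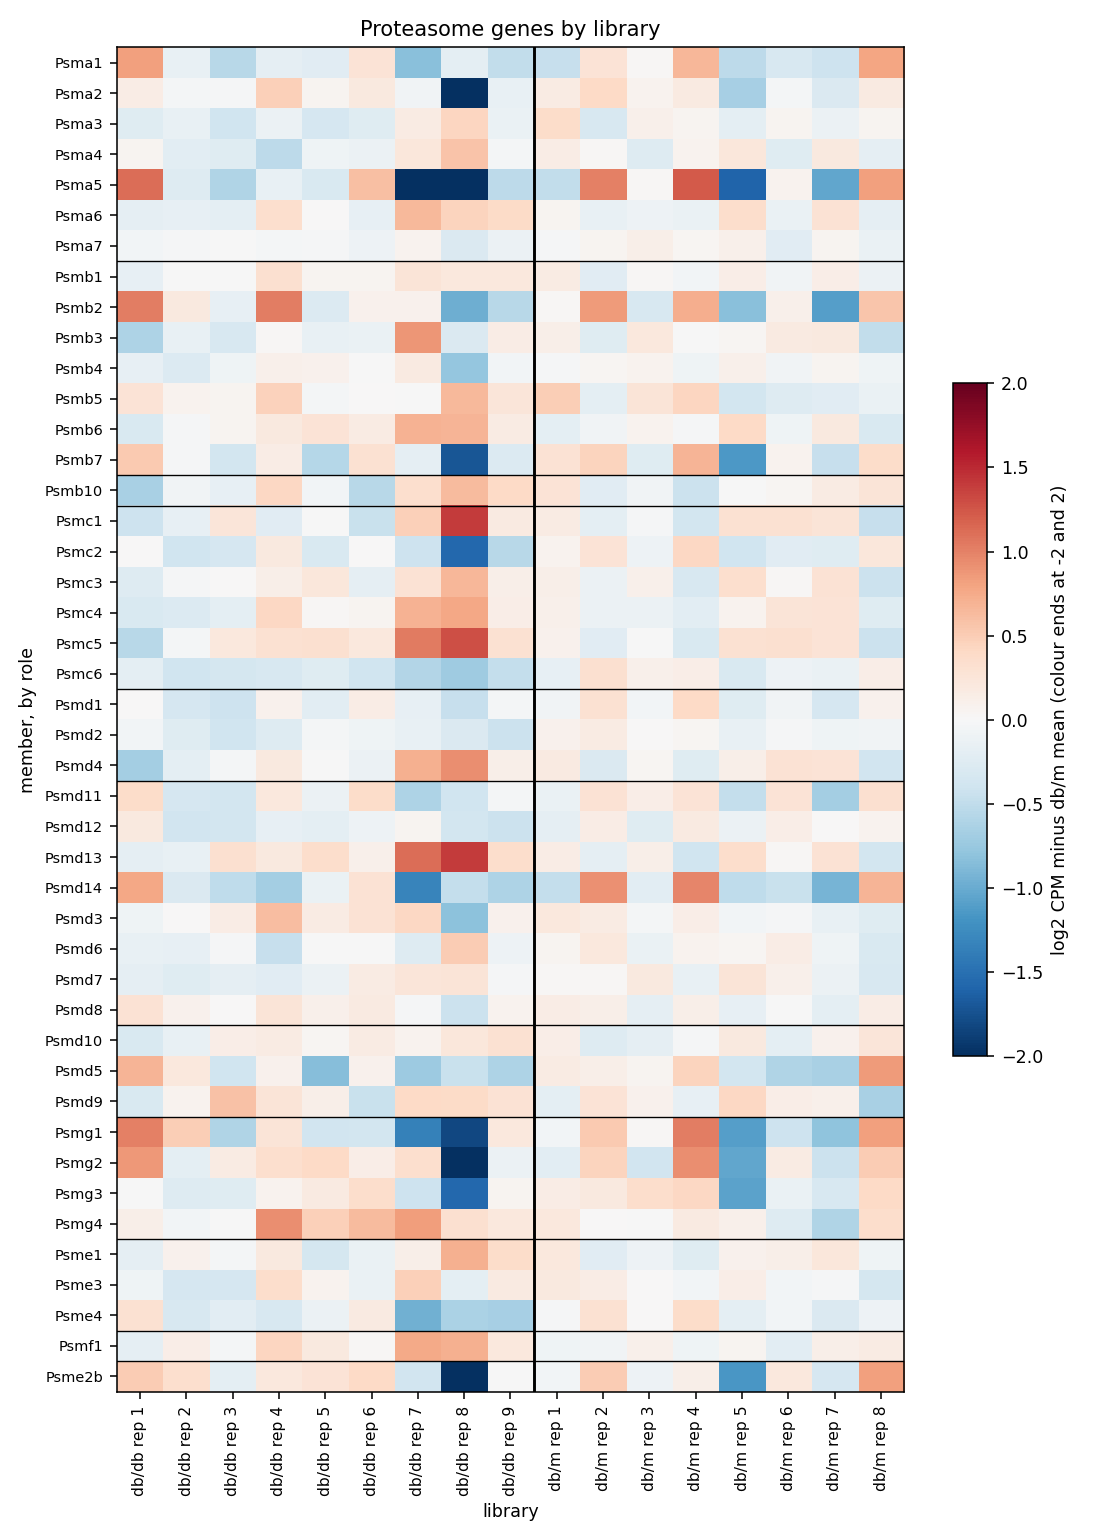
Log2 CPM of each member minus its db/m mean, members by role down the page and libraries across, db/db left of db/m. The column of db/db replicate 8 holds the strongest colours in both directions, the lowest value of db/db replicate 7 is Psma5, and the row of Psmc6 is below 0 throughout db/db.

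Summed levels were also taken, and the genes of high level weigh most in them. The 14 constitutive 20S genes summed to 1153, 1258 and 1489 CPM in db/db (lowest, median, highest) and 1171, 1285 and 1317 CPM in db/m. The means were 1266 ± 109 CPM in db/db (SD, n = 9) and 1267 ± 50.8 CPM in db/m (SD, n = 8). For the 17 genes of the 19S base and lid they were 2474 ± 465.5 CPM in db/db and 2298 ± 167 CPM in db/m, with tops of 3412 CPM in db/db replicate 8 and 3046 CPM in replicate 7. Without db/db replicates 7 and 8 the 19S mean in db/db was 2258 ± 182 CPM. The ratio of the 19S to the 20S sum averaged 1.96 ± 0.392 in db/db and 1.81 ± 0.149 in db/m. Without replicates 7 and 8 it was 1.80 ± 0.100 in db/db, so the higher 19S sum rested on those libraries. These sums are given with no test, and they do not describe the typical member. In db/db replicate 8, which had the highest 19S sum, the median deviation of the members from their db/m means was -0.24 on the log2 scale. That was the lowest of the 17 libraries.

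**Figure D4:**
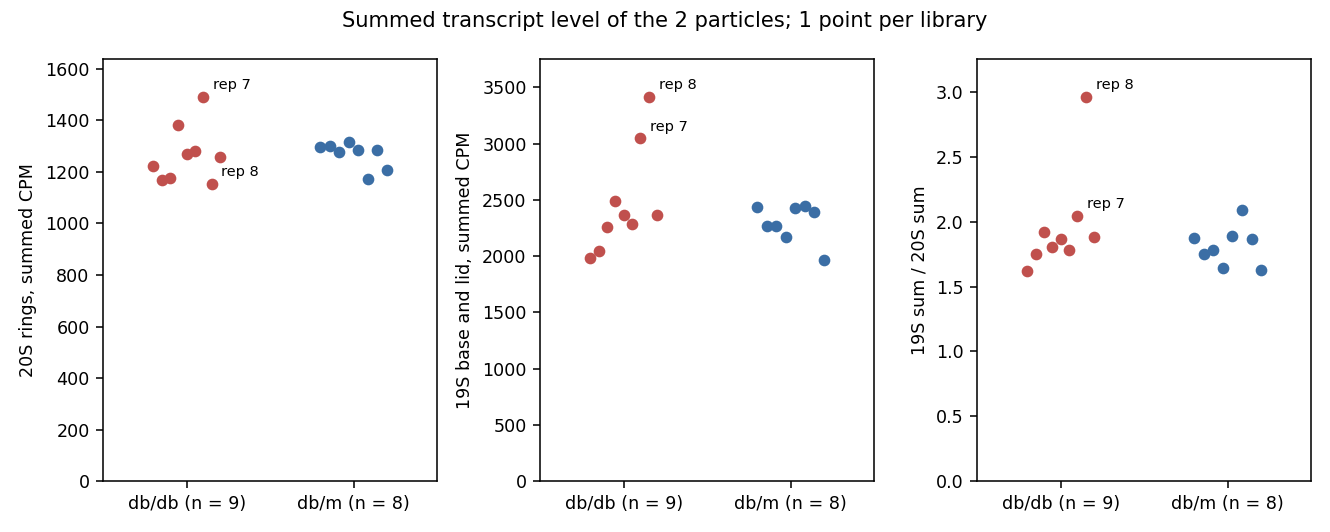
Summed CPM of the 20S ring genes, of the 19S base and lid genes, and the ratio of the 19S to the 20S sum, 1 point per library, db/db left of db/m. The 20S sums have like means (1266 and 1267 CPM), and the highest 19S sum (3412 CPM) and ratio (2.96) belong to db/db replicate 8.

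Genes that work beside the proteasome gave few calls. Among partners with other names, 0 of 11 tested were called by edgeR and 0 had an unadjusted p under 0.05. The smallest p-values belonged to Txnl1 (log2 fold change -0.22, edgeR adjusted p = 0.242) and Ube3c (0.18, edgeR adjusted p = 0.248). Among regulators of proteasome transcription, 0 of 11 were called and 2 had an unadjusted p under 0.05, Nfyc (log2 fold change 0.43, edgeR adjusted p = 0.111) and Nfe2l2. Nfe2l2, the master factor of the antioxidant response, averaged 111 ± 30.5 CPM in db/db and 85.2 ± 10.5 CPM in db/m (log2 fold change 0.38, edgeR adjusted p = 0.118). Nfe2l1 itself had a log2 fold change of 0.12 (SE 0.11). Of ubiquitin, E1 and shuttle genes, 0 of 10 were called and 2 had an unadjusted p under 0.05, Ddb1 (log2 fold change 0.24, edgeR adjusted p = 0.177) and the ubiquitin-activating enzyme gene Uba1 (0.31, edgeR adjusted p = 0.194). Ddb1, an adaptor of cullin ubiquitin ligases, was called higher without db/db replicate 8 (0.30, edgeR adjusted p = 0.0388), without db/db replicates 7 and 8 (0.32, edgeR adjusted p = 0.0308), without replicate 8 of both groups (0.33, edgeR adjusted p = 0.0305) and with the first principal component as a covariate (0.37, edgeR adjusted p = 0.00348). Ddb1 was not called with the share of reads outside genes as a covariate (0.18, edgeR adjusted p = 0.512). With the replicate number as a block it was not called either (0.25, edgeR adjusted p = 0.384). Uba1 had 0.17 without db/db replicates 7 and 8.

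The p97 ATPase and its cofactors extract substrates from membranes and complexes ahead of the proteasome, and 1 of 12 was called, on the lower side. That gene was Ubxn4, which anchors p97 at the endoplasmic reticulum. It had 120, 157 and 179 CPM in db/db and 171, 196 and 225 CPM in db/m, with 8 of 9 db/db libraries below every db/m library. Ubxn4 fell by 0.35 on the log2 scale (SE 0.09, edgeR adjusted p = 0.0201). The call was lost without db/m replicate 4 (edgeR adjusted p = 0.0513) or replicate 6 (0.0505), and also with no count filter (0.0664), with GC-adjusted offsets (0.0581) and with the reads-outside-genes covariate (0.133). The p97 gene Vcp had a log2 fold change of -0.09, and Nsfl1c, a p97 adaptor, of -0.50 (edgeR adjusted p = 0.215).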

How the data were processed

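The authors deposited raw counts per gene for the 17 libraries, as whole numbers; the submitters' processing notes name STAR 2.7.3a and HTSeq 2.16.2 as tools. The build named there, GRCh38, is human, but the gene identifiers are those of mouse. For the mouse build, the strand setting and duplicate removal, details were not given in the sources used here. Reads outside genes made up 19.3% and ambiguous reads 0.533% of the table and were left out. GENCODE M21 gave symbols for 55141 of 55487 identifiers, biotypes, overlaps and GC content. Promoter sequences are from RefSeq on GRCm38.p6.

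Counts were fitted with edgeR 4.0.16 (R 4.3.3; filterByExpr with a minimum of 10, TMM, quasi-likelihood F-test, no covariate) over all 17 libraries, and p-values were adjusted by Benjamini-Hochberg over 12131 genes. The SE was taken as the log2 fold change over the root of its F statistic. Log2 CPM used a prior count of 2. DESeq2 1.42.0 and limma 3.58.1 (voom), the exact permutation test, other scalings, filters and covariates, and fits without single libraries were alternatives.

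Some labels and related genes are not reported here. The 44 members and all lists were chosen with earlier results of these data known. Genes named are those called, the 2 with the smallest p in each role and in each related list, and the catalytic subunits; other members were added for completeness after their values were seen. Replicates are separate animals, and no library copied another (lowest chi-square per degree of freedom within a group 3.83). Library numbers follow the groups, so a batch along them cannot be told apart from the group. A count of 0 allows up to 3 counts, which is 0.378 to 0.925 CPM; such limits cover counting error only.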

Additional observations from a re-analysis of the deposited data

Results flagged for a closer look

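Over 88 combinations of a member and a group, 12 had a library whose gap to the nearest other was large against the group's range, where chance gives about 1 in 20. Of these, 11 were in db/db replicate 8. There the lowest values were Psma2 at 26.5 CPM, Psmb4 at 143.9 CPM, Psmb7 at 16.0 CPM, Psmc2 at 30.7 CPM, Psmd3 at 128.2 CPM and Psmd8 at 120.9 CPM, with Psmg2 at 2.49 CPM, Psmg3 at 6.42 CPM and Psme2b at 1.45 CPM. The highest were Psmc1 at 633.9 CPM and Psmd6 at 67.7 CPM. The last was Psme3, lowest in db/m replicate 8 at 27.8 CPM. The members in db/db replicate 8 share 1 library, and so are not separate events.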

How the results depend on the processing

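The count of members called higher was 0 in all 15 alternatives and in the 17 fits that left out 1 library, and the members' median log2 fold change lay between -0.10 and 0.03 in the alternatives and between -0.05 and 0.00 in those 17 fits. One member, Psmc6, was called lower in each of the 17 fits. The count called lower was 0 with the share of reads outside genes as a covariate, 0 with GC-adjusted offsets, and 2 (Psmc6 and Psmd2) by the exact permutation test. Over all genes, 474 were called higher and 423 lower; leaving out 1 library gave 319 to 666 higher and 318 to 571 lower, and the reads-outside-genes covariate gave 236 higher. With the replicate number as a block, 194 genes were called higher and 231 lower, and no member was called. Psmc6 then had a log2 fold change of -0.40 (edgeR adjusted p = 0.113) and Ubxn4 of -0.37 (edgeR adjusted p = 0.116). Psmb10 was reversed under that block (-0.012). Deviations of same-numbered libraries correlated at -0.45 to 0.21. Libraries of different numbers were not set beside them, so these values cannot decide whether the numbers are a pairing. Fits without db/db replicates 7 and 8, the first principal component as a covariate, the GC adjustment and the Psme2 with Psme2b sum were chosen after seeing the data.

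Without db/db replicates 7 and 8, 10 of the 44 members had the opposite sign, and with the first principal component as a covariate 20 had; none of the sign changes below came with a call, and the cause was not tested. The following are the members named by role or as catalytic subunits, and they include Psma5 and Psmc5, at -0.52 and 0.41 among the larger values. With the reads-outside-genes covariate these were Psma6 (-0.034) and Psmb10 (-0.021). Without replicate 8 of both groups they were Psme1 (-0.0026) and Psme2b (0.22), and without db/db replicates 7 and 8 Psmb10 (-0.063), Psme1 (-0.00033) and Psme2b (0.13). With the first principal component they were Psma6 (-0.043), Psma5 (0.38), Psmb10 (-0.17), Psmc5 (-0.015), Psmd9 (-0.027), Psmd5 (0.11), Psmg3 (0.16), Psme1 (-0.072), Psme2b (0.41) and Psmb7 (0.20). Leaving out 1 library gave Psmb10 -0.0125 to 0.16 and Psme2b -0.18 to 0.07.

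The correlation of Psme1 with Psme2 in db/m was -0.72 with library totals only, -0.62 without its 2 farthest libraries and -0.54 with Psme2 and Psme2b summed, none past the threshold after adjustment, and that sum gave -0.78 in db/db, which passed. In db/db replicate 8 Psme2b had its lowest value (1.45 CPM) and Psme1 its highest (78.3 CPM). The summed pair was not examined without that library. Psmb10 with Psme1 gave 0.70 in db/db and 0.54 in db/m without the 2 farthest libraries. The low members Psma5, Psmg1 and Psmb2 have intervals too wide to place a change within 0.5. How much of that width comes from depth, and how much from spread between animals, was not tested.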

Other observations

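Across the 44 members the log2 fold change (db/db over db/m) correlated with GC content of the transcript at a Pearson r of 0.51, and at 0.18 across the 11065 tested genes with a value. Genes are not independent replicates, and all points share the same 17 libraries, so these are descriptions. With transcript length r was -0.21 across the members.

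Processed copies whose symbols match the Psm pattern took few counts, and copies under other names were not looked at. Psmb6-ps2 held 37 in db/db and 37 in db/m, and Psmb6-ps 6 in db/db and 9 in db/m. Psmb5-ps and Psmb7-ps2 were at 0 in both groups. At the 3′ end of 8 members another gene overlaps within the last 500 bases, on the opposite strand for Psmc3, Psme1, Psmb7, Psmb10 and Psma3, and reads from such pairs cannot be separated without the strand setting.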
